A study of Canis lupus familiaris with 6 samples.

Results

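YAP1, WWTR1 (the gene of TAZ), TEAD1, the kinases LATS1 and LATS2, AJUBA, AMOTL2, and the target genes CYR61, CTGF and ANKRD1 were examined in RasV12-transformed canine epithelial cells that grew alone or among normal cells. These 10 genes were followed through every non-control array probe that carries their symbol. That search found 15 of the 43603 probes and covered 8 of the 10 genes. CTGF and AJUBA had no probe under their symbols, and 2 probes for each were found through the gene description that the array annotation gives, which brought the set to 19 probes. These 4 probes lie outside the symbol search and are counted apart from it.

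The Hippo pathway is a kinase cascade in which STK3 and STK4 (MST2 and MST1) activate LATS1 and LATS2, and the LATS kinases phosphorylate YAP and TAZ. Phosphorylated YAP and TAZ are held in the cytoplasm or degraded, whereas unphosphorylated YAP and TAZ enter the nucleus and, with TEAD factors, switch on genes such as CTGF, CYR61 and ANKRD1. In epithelia the pathway is known to respond to cell density, junctions and cytoskeletal tension, so that much of its control acts on proteins and is not seen in the transcript levels of its components.

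The cells were MDCK-pTR GFP-RasV12, a line derived from Madin-Darby canine kidney (MDCK) cells, which are dog kidney epithelial cells. A tetracycline-inducible promoter drives GFP-tagged RasV12, an active Ras mutant, in these cells. They were plated on type I collagen either alone (3 samples, replicates 1 to 3) or mixed with normal MDCK cells (3 samples, replicates 1 to 3), all received tetracycline for 24 h, and GFP-positive cells were sorted for total RNA. The source label of mixed replicate 2 gives 100 MDCK cells for each RasV12 cell, whereas those of mixed replicates 1 and 3 give 10. The extraction protocol in the labels speaks of cells that also carry a stabilised β-catenin, while the titles and the study's methods give this series without it, and the latter is followed here. Nothing in the labels says that replicates were separate cultures, so p-values measure only the spread between these samples, which may be technical.

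Each sample was hybridised in 1 colour to 1 Agilent canine array. Levels are given as log2 processed intensity minus the 75th percentile of the array, which lay between 592 and 700 units, so a level of 0 is the 75th percentile and levels of different probes are not compared. On each array 60.8% to 66.4% of the probes stood well above background, and the number of arrays limits the precision. Cells cultured alone occupied 1 slide and mixed cultures a second one, so for any difference given here the slide and the culture cannot be told apart. All 9 kidney epithelial markers with a probe, among them CDH1, EPCAM, CDH16 and KRT18, were well above background on all 6 arrays. Their summed scaled level was 686 to 856 alone and 743 to 858 mixed, and most of that sum came from KRT18, KRT19 and EPCAM. The log2 difference, mixed minus alone, was positive for 6 of the 9 (largest for CLDN4, 0.72) and negative for 3 (largest for CDH1, -0.37). Of 12 markers of leukocytes, endothelium, fibroblasts and muscle, 5 (PTPRC, CDH5, COL3A1, PDGFRA and DES) were well above background on no array. Another 6 (CD14, CD68, PECAM1, VWF, COL1A1 and ACTA2) were well above background on all 6 arrays. The 12 summed to 7.09 to 9.23 alone and 7.78 to 9.44 mixed. Most of that sum came from VWF, an endothelial marker, which read 2.07 to 2.68 alone and 2.21 to 2.69 mixed.

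The 60-base probes of YAP1 and AJUBA shown here are those whose genomic span is longer than the probe, so each crosses an intron. The probes of CYR61 and LATS2 end on the stop codon, in capitals. They are given 5′ to 3′ on the transcript strand as the array annotation lists them, in canFam3 coordinates.
YAP1 A_11_P106351 (chr5:29394977-29396358, minus strand): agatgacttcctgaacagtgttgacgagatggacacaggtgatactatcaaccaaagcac
AJUBA A_11_P092431 (chr8:3294955-3295098, minus strand): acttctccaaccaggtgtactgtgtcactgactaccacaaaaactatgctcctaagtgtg
CYR61 A_11_P098191 (chr6:62443960-62444019, minus strand): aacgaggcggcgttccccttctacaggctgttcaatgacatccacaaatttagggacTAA
LATS2 A_11_P070131 (chr25:17167885-17167944, plus strand): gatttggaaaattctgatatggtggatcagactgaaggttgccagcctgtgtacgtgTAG

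The comparison asked which transcripts of RasV12 cells differed when normal cells surrounded them. Transcripts of the pathway genes differed little between mixed culture and culture alone. Of the 15 probes found by symbol, 14 were bright enough to be tested, 1 was lower in mixed culture (YAP1) and 0 were higher by limma with Benjamini-Hochberg adjustment over all 26535 tested probes. That is 7.14% of the 14, beside 11.2% of all tested probes, of which 5.5% were higher and 5.72% lower. With the CTGF and AJUBA probes, 16 were tested and 1 more, for AJUBA, was higher.

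The differences of the 14 probes were 7 positive and 7 negative, with a median of -0.01 on the log2 scale beside a median of -0.0037 over all tested probes. Their median absolute log2 difference was 0.0868, beside 0.173 over all tested probes, and their median standard error was 0.0835, beside 0.103. The 3 mixed values and the 3 values of cells alone did not overlap for 1 of the 14 probes, whereas they did not overlap for 37.2% of all tested probes. For all 14 probes the 95% confidence interval of the difference lay within 1.5-fold either way, which held for 18491 of the 26535 tested probes.

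**Figure D1:**
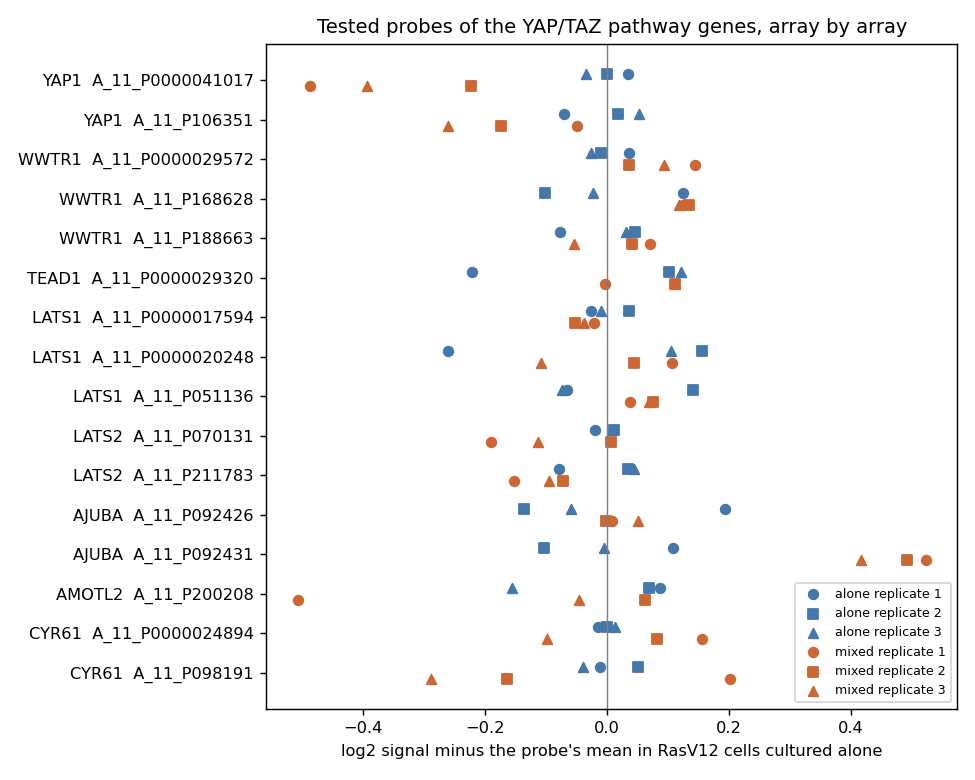
Each row is a tested probe and each point an array, placed by its log2 signal minus the mean of that probe in RasV12 cells cultured alone (blue, alone; orange, mixed; symbols, replicates 1 to 3). The mixed arrays lie apart from the arrays of cells alone for YAP1 probe A_11_P0000041017, on the lower side, and for AJUBA probe A_11_P092431, on the higher side, and overlap them in the other 14 rows.

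YAP1, the transcriptional co-activator at the end of the kinase cascade, was the gene whose probe fell. Probe A_11_P0000041017 (chr5:29391244-29391303), which lies at position 4434 of the annotated transcript, read 0.60, 0.57 and 0.53 in cells alone and 0.08, 0.34 and 0.17 in mixed culture, for replicates 1, 2 and 3. Every mixed array was below every array of cells alone. The mean fell from 0.57 ± 0.03 to 0.20 ± 0.13 (SD, n = 3 each), a log2 difference of -0.37 with a standard error of 0.09 (95% interval -0.58 to -0.16), or 0.775 of the level alone, with an adjusted p of 0.0462 by limma. With the replicate number as a block the adjusted p was 0.0615. The adjusted p was also over 0.05 without alone replicate 2 (0.146), alone replicate 3 (0.136), mixed replicate 1 (0.0909), mixed replicate 2 (0.0854) or mixed replicate 3 (0.156), while the log2 difference stayed between -0.44 and -0.31 whichever array was left out.

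The other YAP1 probe, A_11_P106351, is the intron-crossing probe at position 701 of the same transcript. It read 2.47, 2.56 and 2.59 alone and 2.49, 2.37 and 2.28 mixed. Mixed replicate 1 lay among the arrays of cells alone and the others below them. Its log2 difference was -0.16 with a standard error of 0.08 (95% interval -0.36 to 0.04, adjusted p = 0.237 by limma), which did not pass the threshold. The gap between the probes within an array, the first minus the intron-crossing one, was -1.87, -1.99 and -2.06 alone and -2.41, -2.02 and -2.11 mixed, so the groups overlapped. The exact permutation test gave p = 0.2 (two-sided), and 0.6 after Benjamini-Hochberg adjustment over the 10 probe pairs of the same gene. The differences of the YAP1 probes therefore had the same sign. The test, whose smallest p is 0.1 with 3 samples against 3, could not decide whether they differ in size.

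WWTR1 encodes TAZ, the paralog of YAP, and its 3 probes had differences of 0.02, 0.09 and 0.13 on the log2 scale, all positive and none past the threshold. All 3 were negative when the arrays were scaled to spike-in controls, a scaling that moved the median of all probes to -0.17. The probe with the largest of these differences, A_11_P168628, read 1.49, 1.26 and 1.34 alone and 1.48, 1.49 and 1.48 mixed. The mixed values lay at the top of the range of cells alone, and its difference of 0.13 had a standard error of 0.08 (95% interval -0.07 to 0.32, adjusted p = 0.337 by limma). The intervals of the other probes were -0.07 to 0.25 for A_11_P0000029572 and -0.16 to 0.20 for A_11_P188663.

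Relative to WWTR1 within the arrays, YAP1 read lower in mixed culture, in a comparison that no constant scaling of an array affects. The mean of the YAP1 probes minus the mean of the WWTR1 probes, taken relative to its average in cells alone, was -0.05, 0.03 and 0.01 alone and -0.38, -0.27 and -0.38 mixed. The groups did not overlap, and the difference was -0.34 on the log2 scale. The exact permutation test gave p = 0.1 (two-sided), the smallest value that 3 samples against 3 allow. The same measure for LATS1 against LATS2 differed by 0.12 and overlapped (exact permutation p = 0.3). These are the only gene pairs compared, and they were chosen after the values were seen.

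TEAD1, a DNA-binding partner of YAP and TAZ, was measured by 1 probe. It read -0.75, -0.43 and -0.41 alone and -0.54, -0.42 and -0.42 mixed. Apart from replicate 1, which was the lowest of its group in both conditions, the arrays lay within a few hundredths of each other. The log2 difference was 0.07 with a standard error of 0.11 (95% interval -0.19 to 0.34, adjusted p = 0.688 by limma).

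LATS1 and LATS2, the kinases that phosphorylate YAP and TAZ, gave no probe past the threshold. The 3 LATS1 probes differed by -0.04, 0.01 and 0.06. The most even of them, A_11_P0000017594, read -2.59, -2.53 and -2.57 alone and -2.59, -2.62 and -2.60 mixed, with a 95% interval of -0.19 to 0.12. The LATS2 probe that ends on the stop codon, A_11_P070131, read 1.74, 1.77 and 1.77 alone and 1.57, 1.77 and 1.65 mixed, a difference of -0.10 (95% interval -0.28 to 0.09, adjusted p = 0.426 by limma). The neighbouring LATS2 probe, A_11_P211783, differed by -0.11 (95% interval -0.28 to 0.07). Both LATS2 probes were lower on average in mixed culture with groups that overlapped, and the LATS1 probes had both signs.

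**Figure D2:**
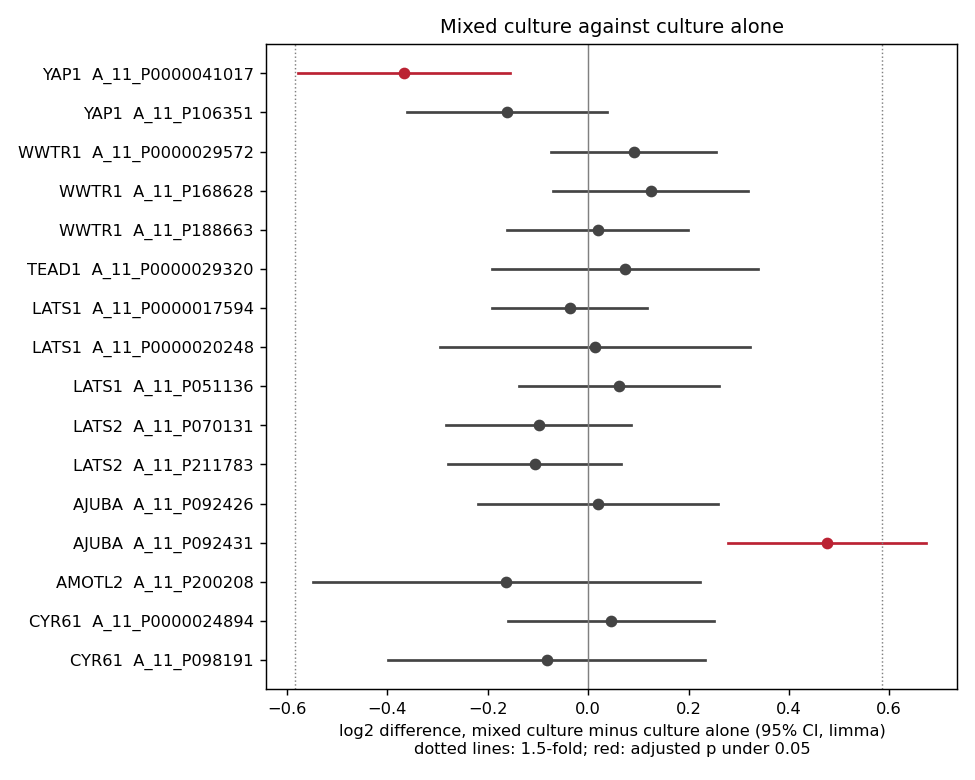
Each point is the log2 difference of a tested probe, mixed culture minus culture alone, with its 95% confidence interval from limma (3 arrays a group); red marks an adjusted p under 0.05 and dotted lines mark 1.5-fold. YAP1 A_11_P0000041017 at -0.37 and AJUBA A_11_P092431 at 0.48 are red, and the intervals of the other 14 probes include 0.

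AJUBA is a LIM-domain scaffold protein of cell junctions that binds LATS kinases and restrains them. Its intron-crossing probe, A_11_P092431, at position 1360 of the transcript, read -0.38, -0.59 and -0.49 alone and 0.03, 0.00 and -0.07 mixed. Every mixed array was above every array of cells alone. The mean rose from -0.49 ± 0.11 to -0.01 ± 0.06 (SD, n = 3 each), a log2 difference of 0.48 with a standard error of 0.08 (95% interval 0.28 to 0.67), or 1.39-fold, with an adjusted p of 0.0235 by limma. The adjusted p was over 0.05 without alone replicate 2 (0.0959), alone replicate 3 (0.0967), mixed replicate 1 (0.0512), mixed replicate 2 (0.0956) or mixed replicate 3 (0.0954), and the difference stayed between 0.42 and 0.53.

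The second AJUBA probe, A_11_P092426 (chr8:3273051-3273110), at position 2369 of the transcript, did not show that rise. It read 1.42, 1.09 and 1.17 alone and 1.23, 1.22 and 1.28 mixed, and the mixed values lay inside the range of cells alone. Its log2 difference was 0.02 with a standard error of 0.10 (95% interval -0.22 to 0.26, adjusted p = 0.915 by limma). The gap of this probe over the intron-crossing one was 1.80, 1.68 and 1.66 alone and 1.20, 1.22 and 1.35 mixed. The gap was smaller on every mixed array, by 0.46 on average (exact permutation p = 0.1, two-sided, 0.6 after Benjamini-Hochberg adjustment over the 10 probe pairs of the same gene). The smallest p of that test is 0.1, so it could not decide whether the AJUBA probes differ. The probes stand at positions 2369 and 1360 of the annotated transcript but start as far apart as 3273051 and 3294955 on chromosome 8. Both are assigned to AJUBA only by the description of that transcript, and whether both measure AJUBA was not tested. As 1 probe rose and the other did not, the rise is given for 1 probe and not for the gene.

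**Figure D3:**
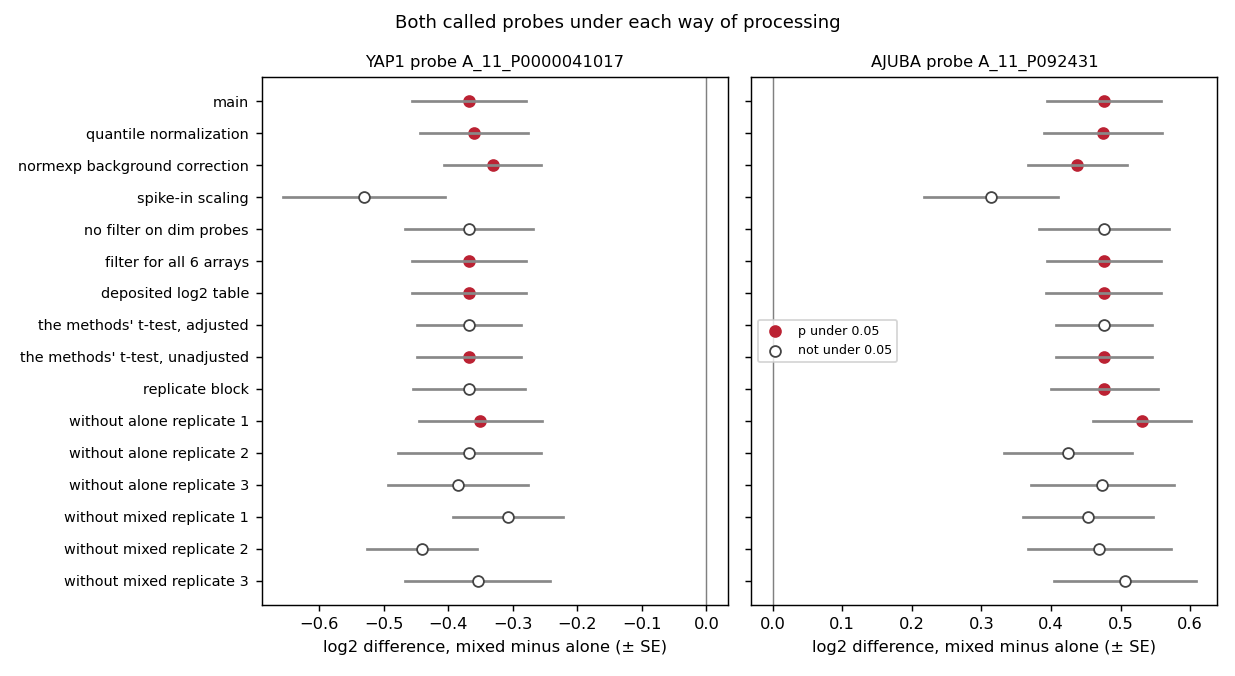
Log2 difference (mixed minus alone, with its standard error) of YAP1 probe A_11_P0000041017 and AJUBA probe A_11_P092431 under each way of processing, with filled red points where p was under 0.05 after adjustment (unadjusted for the row so named). The sign is the same in every row, while 6 of 15 alternatives for YAP1 and 7 of 15 for AJUBA kept p under 0.05.

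AMOTL2, an angiomotin-family junction protein that binds YAP and is itself a YAP target, was measured by 1 probe. It read 2.33, 2.32 and 2.09 alone and 1.74, 2.31 and 2.20 mixed. Only mixed replicate 1 lay below the range of cells alone. The log2 difference was -0.16 with a standard error of 0.16 (95% interval -0.55 to 0.22, adjusted p = 0.531 by limma), the widest interval among the 16 tested probes, and it was 0.01 without mixed replicate 1.

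CYR61, a secreted matricellular protein of the CCN family and a widely used YAP readout, was strongly expressed in both cultures. Its brighter probe, A_11_P0000024894, had an intensity of 21948 to 27904 units over the 6 arrays. Its levels were 5.30, 5.31 and 5.32 alone and 5.47, 5.39 and 5.21 mixed, so the mixed arrays lay on both sides of the others. The log2 difference was 0.05 with a standard error of 0.09 (95% interval -0.16 to 0.25, adjusted p = 0.75 by limma). The probe that ends on the stop codon, A_11_P098191, read 0.38, 0.44 and 0.35 alone and 0.59, 0.22 and 0.10 mixed, a difference of -0.08 (95% interval -0.40 to 0.23). For both CYR61 probes mixed replicate 1 was the highest of the 6 arrays and mixed replicate 3 the lowest.

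CTGF, another CCN-family protein and YAP target, was dim. Probe A_11_P0000021765 was well above background on 0 of 6 arrays, with intensities of 2.73, 11.3 and 1.90 alone and 3.05, 6.93 and 7.42 mixed (exact permutation p = 0.6, two-sided). Probe A_11_P117051 (chr1:25510769-25510828) had intensities of 3.15, 2.83 and 2.16 alone and 3.33, 53.9 and 44.8 mixed. It was well above background on mixed replicates 2 and 3 and on no other array, and mixed replicate 1 was as dim as the cells alone. It was therefore measured on 2 of 3 mixed arrays and 0 of 3 arrays of cells alone.

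The mean pixel value of that CTGF spot was 99.9 and 89.6 on mixed replicates 2 and 3, with medians of 96 and 87, while its medians on the other arrays were 42 to 45. A bound for cells alone is set by the lowest intensity that was well above background on those arrays. The mean log2 level of all 3 mixed arrays was 1.89-fold that bound. This mean takes in mixed replicate 1, which was not well above background, so the ratio is not a lower limit. The ratio was 4.67-fold without mixed replicate 1, 1.18-fold without mixed replicate 2 and 1.23-fold without mixed replicate 3. The exact permutation test gave p = 0.1 (two-sided), the smallest possible. That value rests on ranking mixed replicate 1 (3.33 units) above alone replicate 1 (3.15 units), neither of them well above background, so it decides nothing. Fitted without a filter on dim probes, its adjusted p was 0.235 by limma with all 6 arrays. Without mixed replicate 1 the probe passed the filter through mixed replicates 2 and 3 alone, and its adjusted p was 0.00212 by limma. That fit leaves out the mixed array on which the probe was dim, so it decides nothing either.

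ANKRD1, an ankyrin-repeat protein and YAP target, was well above background on 0 of 6 arrays. Its intensities were 7.11, 6.08 and 8.46 alone and 3.1, 2.76 and 4.60 mixed. All 3 mixed values were lower (exact permutation p = 0.1, two-sided, the smallest possible), but all 6 lie below the lowest intensity that counted as well above background, 9.15 to 14.6 units, so no fold is given.

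**Figure D4:**
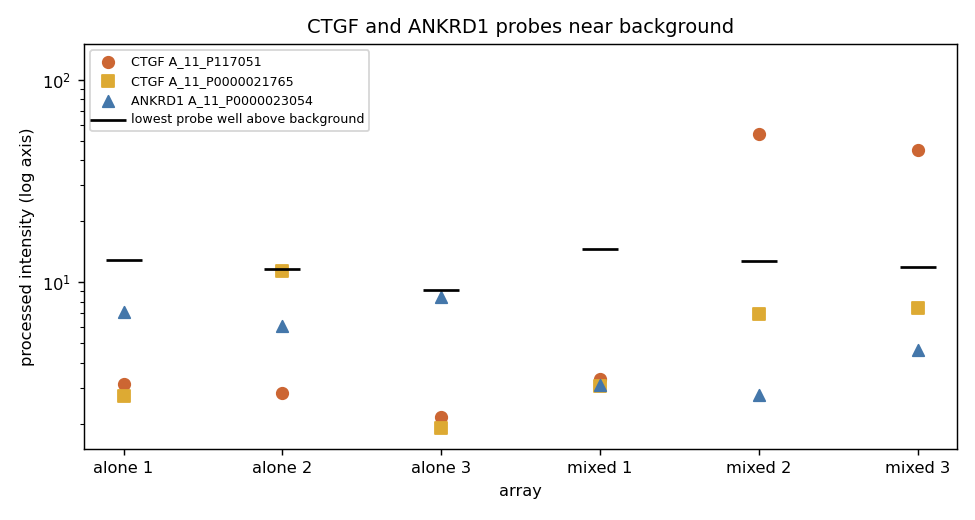
Processed intensity (log axis) of the CTGF probes and the ANKRD1 probe on each array, with black bars at the lowest intensity that was well above background on that array. Only CTGF probe A_11_P117051 on mixed replicates 2 and 3, at 53.9 and 44.8 units, stands above the bars.

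Upstream regulators of the pathway changed in both directions. The list held 40 genes, 33 with a probe under their symbol, and 29 were tested with 1 probe a gene. Of these 3 were higher and 3 lower in mixed culture, 20.7% beside 11.2% of all tested probes, and the median difference was 0.10. With the replicate block 3 of the 29 were called (1 higher, 2 lower), and 0 were called with spike-in scaling or without a filter on dim probes. Leaving out alone replicate 1 gave 9 calls, leaving out mixed replicate 1 gave 1, and there were 0 without alone replicate 2 or 3 or mixed replicate 2 or 3, and for the target and Ras-MAPK lists described further on it was also 0 without any of these last 4 arrays.

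STK4, the MST1 kinase that activates LATS, fell the most among them. It read 0.74, 0.99 and 0.97 alone and 0.25, 0.46 and 0.26 mixed, so the groups did not overlap. Its log2 difference was -0.58 with a standard error of 0.10 (adjusted p = 0.0248 by limma), and its second probe also fell, by 0.70. Its closest relative STK3 differed by 0.20, -0.29 and -0.02 on 3 probes, none past the threshold. NF2, the membrane-associated activator of the cascade, differed by 0.11, -0.14 and -0.18 on 3 probes, none past the threshold.

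RASSF6, a Ras-association domain protein that binds the MST kinases, fell by 0.42, and STRN3, a striatin of the phosphatase complex that opposes them, fell by 0.40. FAT4, an atypical cadherin of the planar polarity branch, rose by 0.45, from readings of -4.35, -4.45 and -4.29 alone to -3.89, -3.92 and -3.93 mixed, with non-overlapping groups. FAT4 was tested on 1 of its 4 probes, a dim one, and the difference was 0.18 with normexp background correction (adjusted p = 0.0934 by limma). MAP4K1, a kinase of a family that can activate LATS, rose by 0.41, and STK38 (NDR1), a kinase related to LATS, rose by 0.33. The adjusted p of these 5 genes was between 0.0208 and 0.0493 by limma, and with the replicate block it was 0.0539 for RASSF6, 0.0556 for MAP4K1 and 0.0645 for STK38. The genes that changed therefore include an activator of LATS and a part of a complex that opposes the MST kinases, which both fell. They also include a member of a family of LATS activators that rose, on its 1 probe. No other tested gene with a MAP4K name passed the threshold.

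TEAD factors and their partners formed a list of 12 genes, 8 with a probe and 7 tested. None of the 7 was called by limma, 2 had an unadjusted p under 0.05, and the methods' t-test gave 1 with an unadjusted p under 0.05. TEAD2 differed by 0.01 (95% interval -0.20 to 0.23) and TEAD4 by 0.01 (95% interval -0.31 to 0.33), and both differences were negative with spike-in scaling. TEAD3 had no probe under its symbol. RUNX2, a YAP partner in bone, had 4 tested probes, of which 2 were called lower (-0.81 and -0.74), while its brightest probe, with a difference of -0.37, did not pass the threshold. With the mean over the probes of a gene, RUNX2 was the 1 gene of the list that was called.

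Further YAP and TAZ targets, with CTGF, CYR61 and ANKRD1 left out, numbered 32, of which 26 had a probe and 21 were tested. By limma 0 were higher and 3 were lower (NUAK2, F3 and CCND1), 14.3% of the 21 beside 11.2% of all tested probes, a share near the background. In 4 alternatives 1 gene was called higher, with the replicate block (3 lower), without alone replicate 1 (6 lower), without mixed replicate 1 (1 lower) and with the methods' t-test before adjustment (7 lower). The median difference was -0.09, with 10 positive against 11 negative differences. NUAK2, an AMPK-related kinase, read 1.25, 1.54 and 1.49 alone and 0.54, 0.33 and 0.41 mixed. The groups were far apart, and the log2 difference was -0.998 with a standard error of 0.10 (adjusted p = 0.0131 by limma). Its other probes differed by -0.97, also past the threshold, and -0.48.

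F3, the tissue factor that starts blood coagulation, had 5 probes, of which 3 were tested, and these differed from each other. The brightest probe read 4.50, 5.26 and 5.14 alone and 3.92, 4.23 and 4.02 mixed, a fall by 0.91 (adjusted p = 0.0414 by limma). The other 2 tested probes differed by 0.06 and 0.04. With quantile normalization the adjusted p of the brightest probe was 0.0602. CCND1 (cyclin D1), a cell cycle regulator that is also on the Ras-MAPK list, fell by 0.59 (adjusted p = 0.0366 by limma, 0.0633 with the replicate block). AXL, a receptor tyrosine kinase, differed by 0.22 (95% interval -0.04 to 0.48). The 3 called targets were lower while both CYR61 probes differed by 0.08 or less in size, and that contrast between genes was not tested.

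Genes that Ras signalling through MAPK is known to raise were read beside these results. Of 17 such genes 13 had a probe and 12 were tested, of which 3 were lower (EPHA2 by -0.71, CCND1 by -0.59 and FOSL1 by -0.52) and 1 was higher (EGR1 by 0.77), which is 33.3% of the 12 beside 11.2% of all tested probes, with a median of -0.50. The summed scaled level of the 13 genes was 128 to 132 in cells alone and 108 to 124 in mixed culture. DUSP6 alone made up 86.9 to 92.1 units of that sum in cells alone and 71.3 to 86.5 in mixed culture, and the other 12 genes summed to 35.6 to 41.7 and 33.9 to 37.2, which overlap. EGR1 is an immediate early transcription factor, and both its probes rose. DUSP6, a phosphatase of ERK, differed by -0.19 on its brightest probe and by -0.31, -0.34 and -0.26 on its other probes, none past the threshold. SPRY4, a feedback inhibitor, differed by -0.58 and did not pass the threshold. SPRY4 was well above background on 4 of 6 arrays and was tested only because every array of cells alone showed it. Its difference lay between -0.92 and -0.09 over the alternatives. ETV4 had no probe under its symbol. The part of these Ras-MAPK values in the differences of the YAP1, NUAK2 and F3 probes that fell was not tested, and in bulk RNA from sorted cells a change in all cells and a share of other cells cannot be told apart.

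**Figure D5:**
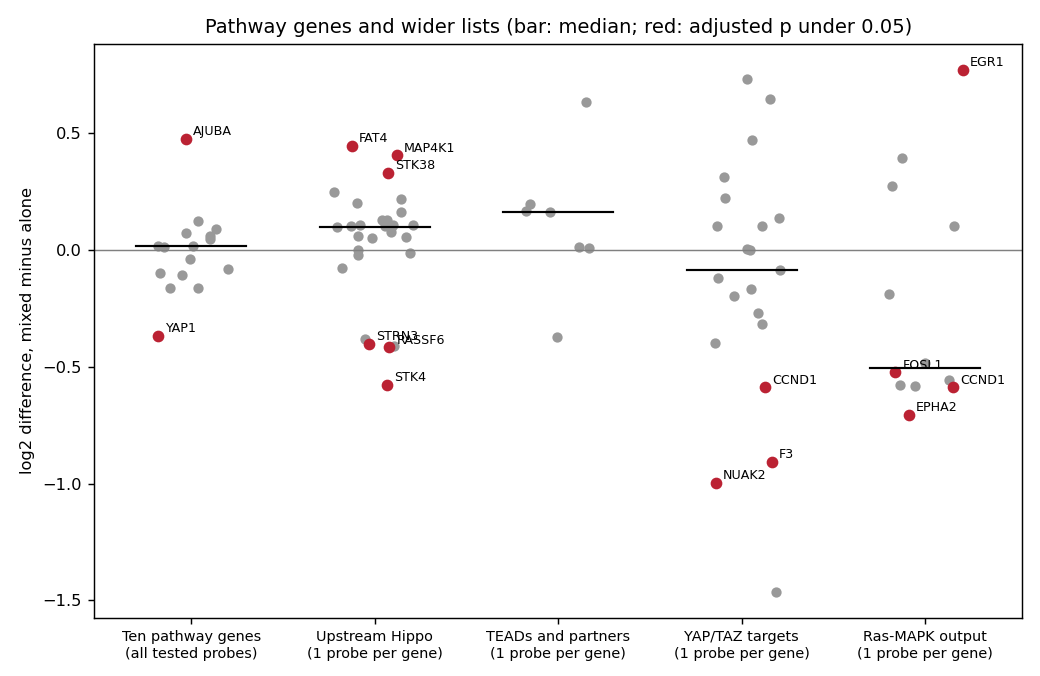
Log2 difference (mixed minus alone) of the tested probes of the pathway genes and, with 1 probe a gene, of the wider lists. Each point is a probe, bars are medians, and red points with a name had an adjusted p under 0.05 by limma: 2 probes of the pathway genes, 6 upstream genes, 0 TEADs and partners, 3 targets and 4 Ras-MAPK genes.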

How the data were processed

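The authors deposited, for each of the 6 arrays, the Agilent Feature Extraction output (version 10.10.1.1 per the file headers), whose processed intensity per spot is background-corrected but not scaled between arrays. A second deposited file holds log2 values for 26529 probes, each column of which equals the log2 processed intensity minus a constant within 0.001 of the log2 75th percentile. Probe coordinates in the files are on canFam3. The study's methods state no array normalization and name an unpaired two-tailed t-test.

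Control and outlier-flagged spots were left out, repeated spots averaged, and log2 values expressed relative to the 75th percentile of each array over 43603 probes. Testing required that every array of at least 1 group showed the probe well above background. Groups were compared with limma 3.58.1 (lmFit and eBayes, R 4.3.3) in a two-sided test with Benjamini-Hochberg adjustment over all tested probes and a threshold of 0.05. Dim probes got an exact permutation test. Tables and plots were made with Python 3.11.15, pandas 2.3.3, numpy 2.4.6 and matplotlib 3.10.9, and the fit was tested on simulated data.

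The 10 genes and the wider lists were chosen with earlier results of these data known, and the lists are described by counts and medians. In the wider lists a gene is represented by its probe with the highest mean. The text names every probe of the 10 genes, list genes with an adjusted p under 0.05 and up to 3 others a list fixed by role; RUNX2 was added after its values were seen, and 1 gene that this rule names is not reported here.

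After group means were removed, arrays with the same replicate number correlated at 0.349, 0.162 and 0.296 across probes. Each was over 0.1, the value set beforehand for reading the numbers as pairs. Alone replicate 2 correlated more with mixed replicate 3 (0.238) than with mixed replicate 2, so the pairing of these numbers is not firm. The main fit, which gave the counts and adjusted p-values unless stated, was unpaired like the test in the study's methods. Only 1 alternative had the replicate number as a block. The labels do not say what the numbers stand for, and they are also the positions on the slide. The values were also recomputed with the methods' t-test, from the deposited log2 table, with scaling to 8 spike-in controls, with normexp (offset 50) or quantile normalization, with every probe or only those above background on all 6 arrays, with the mean over probes of a gene, and without each array in turn. A slide block could not be fitted.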

Additional observations from a re-analysis of the deposited data

How the results depend on the processing

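Of all tested probes 2978 were called. The count was 1021 with spike-in scaling (29.5% of them higher, against 49.0% in the main setting), 12 without a filter on dim probes, 826 with the methods' t-test after adjustment and 7315 before it, and between 7 (without alone replicate 3) and 7335 (without alone replicate 1) when 1 array was left out. It was within 1.5 times the main count with the deposited table, the replicate block (2825), normexp, quantile normalization and the filter that required all 6 arrays. Of the 14 pathway probes found by symbol 1 was called, and 0 with no filter, the replicate block, spike-in scaling or the adjusted t-test, and 0 to 1 when 1 array was left out. Of upstream genes 6 were called, and 0 with no filter or spike-in scaling, 3 with the replicate block, 1 with the adjusted t-test and 0 to 9 with 1 array left out. Of TEADs and partners 0 were called, and 1 with the mean over probes, normexp, the replicate block or the unadjusted t-test, and 0 to 1 with 1 array left out. Of targets 3 were called, and 0 with no filter, 5 with normexp, 1 with quantile normalization, spike-in scaling or the adjusted t-test, 8 with the unadjusted t-test and 0 to 7 with 1 array left out. Of Ras-MAPK genes 4 were called, and 0 with no filter, 2 with spike-in scaling or the adjusted t-test and 0 to 6 with 1 array left out. The replicate block changed the calls of the YAP1 probe and the list genes named with it in the report. The cause of these changes was not tested.

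Spike-in scaling, which moved the median of all probes to -0.166, turned the sign of small positive differences: LATS1 A_11_P0000020248 to -0.149, LATS1 A_11_P051136 to -0.102, CYR61 A_11_P0000024894 to -0.117, TEAD1 to -0.0891, AJUBA A_11_P092426 to -0.143, the WWTR1 probes to -0.0719, -0.0376 and -0.144, NF2 to -0.0564, TEAD2 to -0.15 and TEAD4 to -0.154. Quantile normalization gave -0.0187 for LATS1 A_11_P0000020248, and normexp gave -0.0037 for TEAD4. Leaving out 1 array gave differences of both signs for LATS1 A_11_P0000020248 (-0.116 to 0.0917), CYR61 A_11_P0000024894 (-0.0083 to 0.119), CYR61 A_11_P098191 (-0.225 to 0.0194), TEAD1 (-0.0374 to 0.134), AJUBA A_11_P092426 (-0.0482 to 0.116), WWTR1 A_11_P188663 (-0.02 to 0.0552), AMOTL2 (-0.276 to 0.0081), TEAD2 (-0.0365 to 0.0816) and TEAD4 (-0.0659 to 0.153). The slide could not be a block because each slide held 1 group, and signal near background limits what can be said of CTGF and ANKRD1.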
